A study of Mus musculus with 6 samples.

Results

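The genes described here are 10 components and response genes of bone morphogenetic protein (BMP) signalling: the ligand gene Bmp4, the BMP-binding protein gene Bmper, the Smad genes Smad6, Smad7 and Smad9, the 4 Id genes and the transcription factor gene Atoh8. They were taken by gene symbol from 19505 measured genes and were selected on their lower log2 intensity in cells carrying AC9. All 10 were on the array, each with 1 probe set. The difference between AC9 and VECTOR was what chose them, so their values are given as a description and without a test. 2 of them, Id4 and Smad7, did not follow the description, since their AC9 and VECTOR arrays overlapped.

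The cells were 393P, a mouse lung adenocarcinoma line that some labels write as 9393P, and both groups were stable transfectants grown in RPMI with fetal bovine serum. One group held 3 samples with the empty VECTOR and the other 3 samples with AC9 overexpression, and each sample was read on 1 Affymetrix Clariom S array. AC9 is listed in the reference gene table as another name of Adcy9, the gene of the cAMP-forming enzyme adenylyl cyclase 9. Selection was with puromycin or G418. The drug used for each group, the promoter driving AC9, whether each group was 1 clone or a pool, and whether its 3 samples were separate cultures are not stated in the sources at hand. An effect of drug or of clonal selection cannot be told apart from one of AC9, and the spread between samples may be technical.

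BMPs are secreted ligands that bring type I and type II serine/threonine kinase receptors together. The receptors phosphorylate Smad1, Smad5 and Smad9, which join Smad4 and enter the nucleus, where the Id genes, Smad6, Smad7 and Atoh8 are among the genes they switch on. Id proteins have a helix-loop-helix but no DNA-binding region and hold E proteins away from DNA, while Smad6 and Smad7 block the receptors and so close a feedback loop. BMP4 itself takes part in lung branching and in the patterning of its epithelium.

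Values are deposited log2 intensities, and a dimness bound of 6.06 was taken from the 90th percentile of the array's negative control probe sets. Adcy9 read 6.12, 6.09 and 6.15 in VECTOR and 6.78, 6.60 and 6.82 in AC9; whether its probe set can see the transfected copy is not stated in the sources at hand. All 8 epithelial markers measured had a mean above the bound in at least 1 group, Cldn7 in VECTOR only. In the lists of other cell types, 0 of 6 leukocyte, 1 of 8 endothelial (Esam) and 1 of 7 fibroblast markers (Col1a1) were. Their summed linear intensities were 143 to 168 in VECTOR and 168 to 170.0 in AC9 for leukocytes, 294 to 302 against 263 to 298 for endothelium, and 300.4 to 336 against 309 to 348 for fibroblasts. The epithelial sum was 24200 to 26084 in VECTOR and 23780 to 25219 in AC9. Single epithelial markers did differ by limma at an adjusted p of 0.05. Epcam, Krt7 and Cldn4 were higher in AC9 and Krt19 lower, or 37.5% and 12.5% of the 8. Over all genes 8.26% were higher and 9.29% lower. Less RNA of a gene per cell and fewer cells making it cannot be told apart in such bulk samples.

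Of the 10 genes, 8 were lower in AC9 with no overlap between the groups, as were 17.7% of all genes; nothing is read from this count, since the same difference chose the genes. For 7 of these 8 both groups were above the bound. The median log2 difference over the 10 was -1.19, beside 0.02 over all genes. Smad9, dim in both groups, enters this median at its measured value and is among the middle values, so the median is only approximate.

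**Figure D1:**
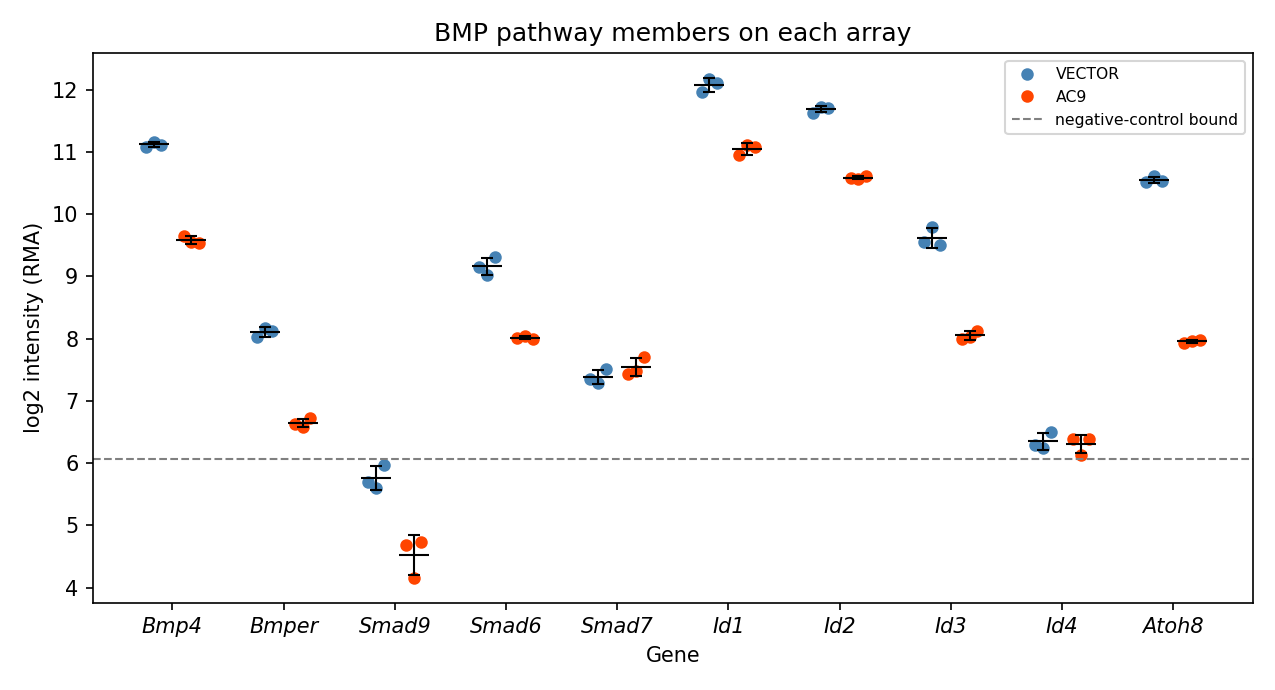
Log2 intensity (vertical axis) of each of the 10 genes (horizontal axis) on the 3 VECTOR and 3 AC9 arrays. Points are arrays, bars are the mean ± SD, and the dashed line is the negative-control bound of 6.06. The AC9 points lie below the VECTOR points for 8 genes and overlap them for Smad7 and Id4; Smad9 lies under the bound. Heights are not comparable between genes, since each probe set binds differently.

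Bmp4, the ligand of the set, read 11.08, 11.17 and 11.12 in VECTOR and 9.65, 9.56 and 9.54 in AC9. The groups lay far apart against an SD of 0.05 in VECTOR and 0.06 in AC9 (n = 3 each). The log2 difference was -1.54 (SE 0.09), which is 2.90-fold.

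Bmper, a secreted protein with von Willebrand factor C domains that binds BMPs and can hinder or help them, read 8.02, 8.18 and 8.12 in VECTOR and 6.63, 6.58 and 6.72 in AC9. Every AC9 array was below every VECTOR array, and the AC9 arrays came close to the bound. Its log2 difference was -1.46 (SE 0.09), or 2.76-fold, so the gene of the ligand and that of a protein binding it were both lower.

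The signal carrier Smad9, also called Smad8, was dim in both groups. It read 5.69, 5.61 and 5.97 in VECTOR and 4.69, 4.16 and 4.73 in AC9. The groups did not overlap, but both means, 5.76 and 4.53, were under the bound, so no size of difference is given.

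The 2 inhibitory Smads parted. Smad6, which mainly blocks BMP receptors, read 9.15, 9.03 and 9.31 in VECTOR and 8.01, 8.04 and 8.00 in AC9, a log2 difference of -1.14 (SE 0.10), or 2.21-fold. Its AC9 arrays agreed closely, with an SD of 0.02 against 0.14 in VECTOR.

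Smad7, which blocks both BMP and TGF-beta receptors, read 7.36, 7.29 and 7.51 in VECTOR and 7.43, 7.49 and 7.71 in AC9. These groups overlapped: VECTOR replicate 3 was above AC9 replicates 1 and 2. The log2 difference was 0.16 (SE 0.11), in the direction opposite to Smad6.

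Among the Id genes, Id1 read 11.96, 12.17 and 12.11 in VECTOR and 10.94, 11.11 and 11.08 in AC9. The lowest VECTOR array lay well above the highest AC9 array. Its log2 difference was -1.03 (SE 0.10), or 2.05-fold.

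Id2 read 11.63, 11.72 and 11.71 in VECTOR and 10.58, 10.57 and 10.61 in AC9, with SDs of 0.05 and 0.02. The difference of -1.10 on the log2 scale (SE 0.09), or 2.14-fold, was close to that of Id1: each lay within 1 SE of the other.

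Id3 read 9.56, 9.80 and 9.51 in VECTOR and 7.99, 8.03 and 8.13 in AC9. VECTOR replicate 2 was the highest array for this gene, and all 3 AC9 arrays were below all VECTOR arrays. The log2 difference was -1.57 (SE 0.11), or 2.97-fold, the widest of the 4 Id genes.

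Id4, whose protein has also been described as opposing the other Id proteins, read 6.30, 6.25 and 6.50 in VECTOR and 6.39, 6.14 and 6.39 in AC9. The groups overlapped, and both means, 6.35 and 6.31, lay just above the bound. Its log2 difference was -0.04 (SE 0.11); a probe set this near the bound may understate a change.

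Atoh8, a basic helix-loop-helix transcription factor, had the widest difference of the 10. It read 10.52, 10.61 and 10.53 in VECTOR and 7.93, 7.96 and 7.99 in AC9. Neither group spread much, with SDs of 0.05 and 0.03 (n = 3 each). The log2 difference was -2.60 (SE 0.09), or 6.05-fold, and counted from the most negative difference Atoh8 ranked 5 of 19505 genes. Id3 ranked 37, Bmp4 42, Bmper 54, Smad6 127, Id2 136 and Id1 173 in the same order, while Id4 ranked 7829 and Smad7 14322.

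**Figure D2:**
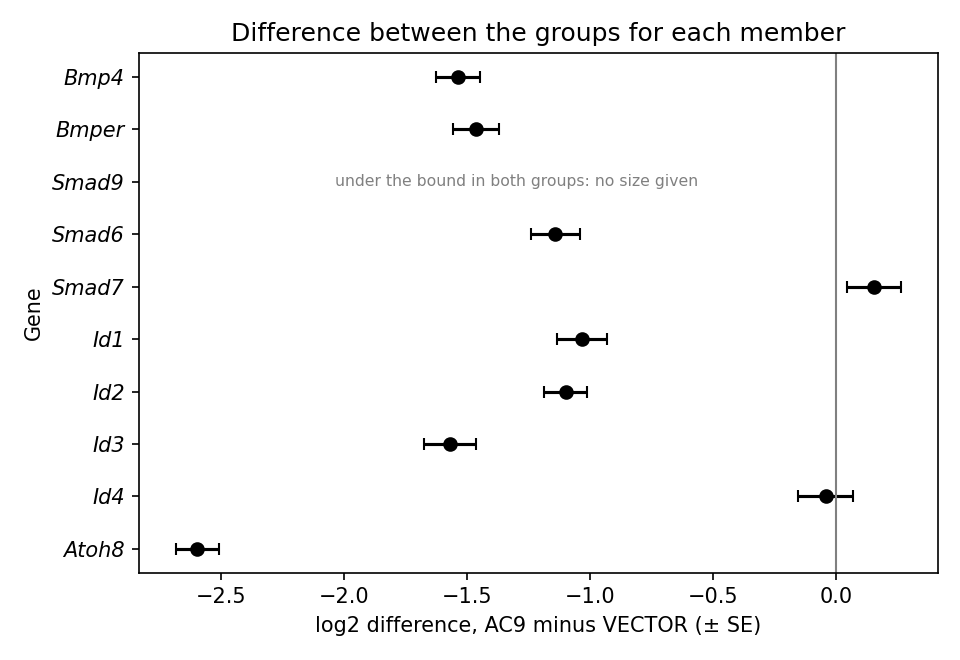
Log2 difference of AC9 minus VECTOR (horizontal axis) for each of the genes (vertical axis), with bars of 1 SE from the fit over all genes. The 7 genes bright enough for a size and without overlap lie between -2.60 for Atoh8 and -1.03 for Id1, and Id4 and Smad7 lie near 0. No size is drawn for Smad9.

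Background probe sets, designed to pair with no RNA of the sample, were also lower in AC9 without overlap in 19 of 23 classes by GC content, with a median log2 difference of -0.06 and a most negative one of -0.50. The negative controls differed by a median of 0.02. With the arrays centred on the negative controls, 9 of the 10 genes had a lower mean in AC9, Smad7 being the exception. The number was the same without that centring, and it counts Id4, whose groups overlapped. Nothing is read from it, since the same difference chose the genes. That centring moves all genes of an array alike, so it does not address a shift that differs between GC classes. The part of the background shift in the differences of the 10 genes was not tested.

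Within groups the 10 genes varied little, with SDs of 0.02 to 0.32, the highest being that of the dim Smad9 in AC9. The 10 genes, the dim Smad9 included, were averaged after each gene's VECTOR mean was subtracted. The VECTOR arrays then stood at -0.06, 0.00 and 0.06 and the AC9 arrays at -1.16, -1.22 and -1.09. Since the genes were chosen on these same arrays, leaving 1 out describes the spread and is no test of the difference. Leaving out any 1 array kept the log2 difference between -2.62 and -2.57 for Atoh8, between -1.57 and -1.51 for Bmp4, between -1.63 and -1.48 for Id3 and between -1.09 and -0.98 for Id1. That of Id4 ran from -0.09 to 0.04 and that of Smad7 from 0.07 to 0.22.

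The 250 bases before the annotated start are shown for Id2, Id3 and Id4, since these sister genes differed in their values: Id2 and Id3 were lower in AC9 and Id4 overlapped. The windows, credited to RefSeq on the build GRCm38.p6, are chr12:25096093-25096342 on the minus strand for Id2, chr4:136143572-136143821 on the plus strand for Id3 and chr13:48260866-48261115 on the plus strand for Id4. Each is written 5′ to 3′, with capitals marking GGCGCC, a GC-rich element that Smad1 and Smad5 can bind, and CAGAC or its reverse complement GTCTG, the Smad box.
Id2: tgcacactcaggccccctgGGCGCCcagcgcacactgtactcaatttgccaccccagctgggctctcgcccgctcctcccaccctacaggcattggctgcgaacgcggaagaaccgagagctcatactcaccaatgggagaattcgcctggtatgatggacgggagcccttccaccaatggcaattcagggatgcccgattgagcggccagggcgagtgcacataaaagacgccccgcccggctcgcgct
Id3: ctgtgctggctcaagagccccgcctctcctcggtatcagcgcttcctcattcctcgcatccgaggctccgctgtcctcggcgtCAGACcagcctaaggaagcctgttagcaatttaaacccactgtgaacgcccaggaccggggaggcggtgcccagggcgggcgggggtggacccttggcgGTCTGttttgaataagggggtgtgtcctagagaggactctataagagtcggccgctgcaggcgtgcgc
Id4: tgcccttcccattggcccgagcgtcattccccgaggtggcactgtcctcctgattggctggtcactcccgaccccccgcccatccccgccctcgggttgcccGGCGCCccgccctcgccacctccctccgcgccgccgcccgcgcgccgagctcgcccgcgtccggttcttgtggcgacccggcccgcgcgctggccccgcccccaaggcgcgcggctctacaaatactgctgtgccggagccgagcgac
GGCGCC, the same on both strands, began 231 bases before the start in Id2 and 148 bases before it in Id4. It is found in 9.59% of the 32841 windows of this length in the table. Id3 held no GGCGCC in its window but 2 Smad boxes, beginning 167 and 68 bases before the start; 42.2% of all windows hold at least 1. The GC-rich letters were thus in the windows of Id2 and of Id4, whose arrays overlapped near the bound. Whether they bear on the differences of these genes was not tested.

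Such windows were read for 8 of the 10 genes, all but Id1 and Smad7. The search left out the chromosome of Smad7, so nothing is said of the window of that gene. The GC content of the 8 windows was 62.8% to 75.6%, beside a median of 52.4% over all windows. GGCGCC was in 3 of the 8 (Id2, Id4 and Smad9) and a Smad box in 1 (Id3). TGACG, the half-site of the cAMP response element, searched on both strands, was in 2 of the 8, beginning 170 bases before the start in Id3, where it overlaps a Smad box, and 229 bases before it in Id4; 17.8% of all windows hold it. The full element TGACGTCA was in 0 of the 8 and in 1.55% of all windows. CANNTG, the E-box that E proteins bind, was in 4 of the 8 (Id2, Smad9, Atoh8 and Bmp4) and in 66.2% of all windows. A match is not evidence of binding, and elements outside these short windows were not looked at.

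The rest of the pathway was read from 9 lists with 126 measured genes, none of them among the 10. By limma at an adjusted p of 0.05, 17 were higher in AC9 and 6 lower, or 13.5% and 4.76%, where 8.26% of all genes were higher and 9.29% lower. The median log2 difference over the 126 was 0.06, beside 0.02 over all genes. The 126 are what was left once the 10 had been taken for their lower values, so the contrast between the 2 sets follows from that choice. In 40 of the 126 both groups were under the bound, and 0 of those were called by limma (4 at an unadjusted p under 0.05). Over all 19505 genes, 5904 had an unadjusted limma p under 0.05, so unadjusted counts here and below are to be read beside that number. The number higher was 10 without VECTOR replicate 1, 10 without VECTOR replicate 2 and 18 without VECTOR replicate 3. It was 9 without AC9 replicate 1, 11 without AC9 replicate 2 and 11 without AC9 replicate 3. The number lower was 3 without VECTOR replicate 1 or without VECTOR replicate 2, and 5 without VECTOR replicate 3. It was 4 without any 1 of the AC9 replicates, and 6 when none was left out.

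**Figure D3:**
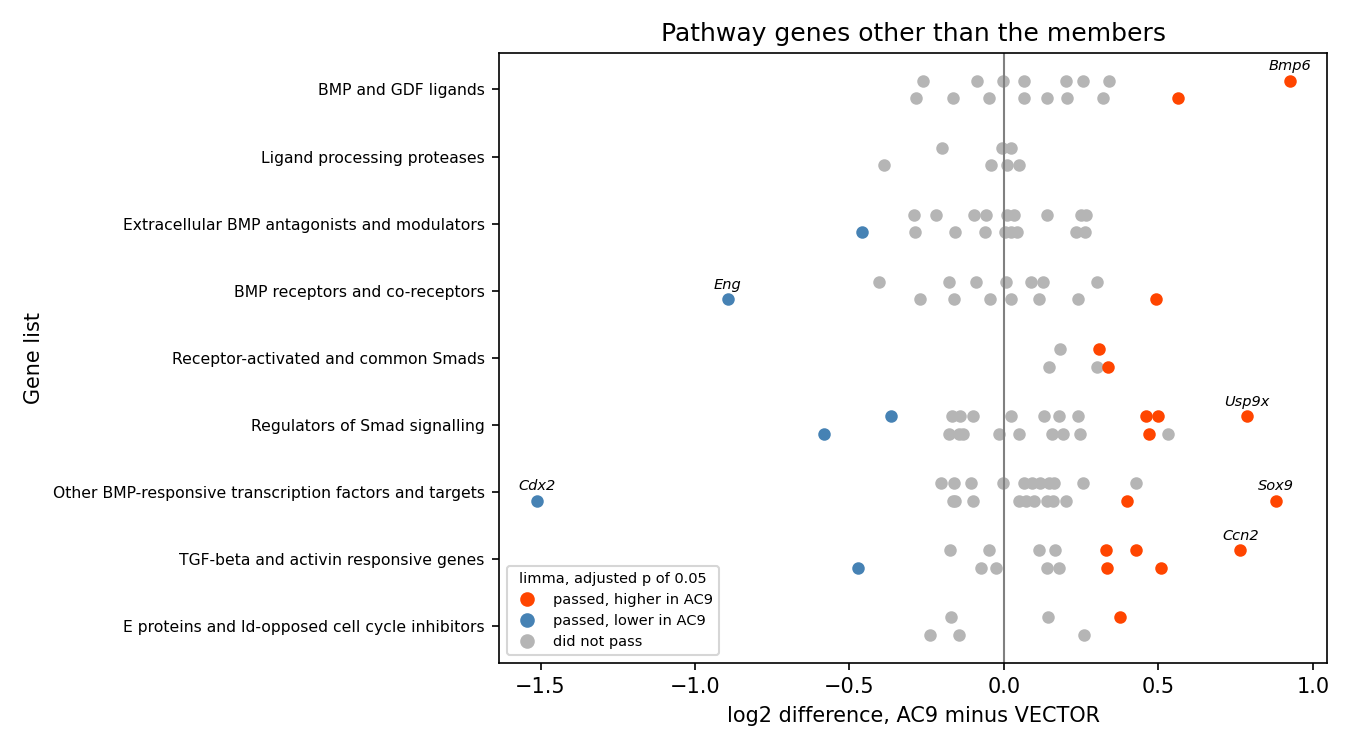
Log2 difference of AC9 minus VECTOR (horizontal axis) for 126 pathway genes outside the 10, by list (vertical axis, with points set on 2 levels for legibility). Red points were higher and blue points lower in AC9 at a limma adjusted p of 0.05, and grey points did not pass. Cdx2 and Eng lie furthest to the left and Bmp6 and Sox9 furthest to the right; dim genes are plotted at their measured difference.

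Among 16 other BMP and GDF ligands, 2 rose and 0 fell (4 and 0 at an unadjusted p under 0.05), while Bmp4 itself was lower. Bmp7, a ligand of many epithelia, read 9.62, 9.57 and 9.70 in VECTOR and 10.18, 10.17 and 10.23 in AC9, a 1.48-fold rise (0.56 on the log2 scale, SE 0.09, limma adjusted p 0.00260). Bmp6 read 6.01, 6.32 and 6.51 in VECTOR and 7.43, 6.93 and 7.27 in AC9. It rose by 0.93 (SE 0.16, limma adjusted p 0.00413), or 1.90-fold, though 1 of its VECTOR arrays lay under the bound. Both kept their calls whichever array was left out. In 12 of the 16 ligands both groups were under the bound, and the list median was 0.10.

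Of 7 proteases that process ligands or free them from antagonists, 0 passed by limma, and 1 had an unadjusted p under 0.05. Bmp1, the tolloid protease that cleaves chordin, had a log2 difference of -0.39 (SE 0.14, limma adjusted p 0.0951). It passed with a trended robust prior (0.0281) and with dim genes left out (0.0481), but its difference was -0.23 without AC9 replicate 2. Pcsk7, a proprotein convertase, had -0.20 (adjusted p 0.271), or -0.11 without AC9 replicate 3, and the list median was -0.01.

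Of 18 secreted antagonists and modulators related in role to Bmper, 1 fell and 0 rose by limma (3 and 2 at an unadjusted p under 0.05), with a list median of 0.01. The one that fell was Nbl1, the BMP antagonist also called DAN, which read 7.47 ± 0.20 in VECTOR and 7.01 ± 0.01 in AC9 (SD, n = 3), a log2 difference of -0.46 (SE 0.11, limma adjusted p 0.0219). The call was lost in 5 of the 6 fits without 1 array, all but that without VECTOR replicate 3, at adjusted p of 0.0618 to 0.0747.

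Of 15 receptors and co-receptors, 1 rose and 1 fell, with a list median of 0.01. Eng, the co-receptor endoglin, read 6.16, 6.60 and 6.31 in VECTOR and 5.36, 5.60 and 5.45 in AC9. Its AC9 mean of 5.47 was under the bound and its VECTOR mean of 6.36 above it, so it was at least 1.20-fold lower (limma adjusted p 0.00162). This lower limit sets the VECTOR mean against the bound of each AC9 array, or against the Eng value itself if higher. Acvr2a, a type II receptor shared by activins and BMPs, rose by 0.49 (SE 0.13, limma adjusted p 0.0297), but not without VECTOR replicate 1 (0.0981), VECTOR replicate 2 (0.0792), AC9 replicate 1 (0.0641) or AC9 replicate 2 (0.0971).

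The 2 core receptors of BMP4, named here for their role and after their values were seen, did not pass. Bmpr1a, the type I receptor, read 8.77, 8.65 and 8.68 in VECTOR and 8.35, 8.68 and 8.59 in AC9, so the groups overlapped (log2 difference -0.16, 95% confidence interval -0.41 to 0.08). Bmpr2, the type II receptor, read 10.28, 10.32 and 10.59 in VECTOR and 10.70, 10.72 and 10.68 in AC9. Its groups did not overlap, but its log2 difference of 0.30 (95% confidence interval 0.06 to 0.54) had a limma adjusted p of 0.0837. It passed, making 2 receptors higher, with a trended robust prior (0.00403), with dim genes left out (0.0365) and without VECTOR replicate 3 (0.0280).

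**Figure D4:**
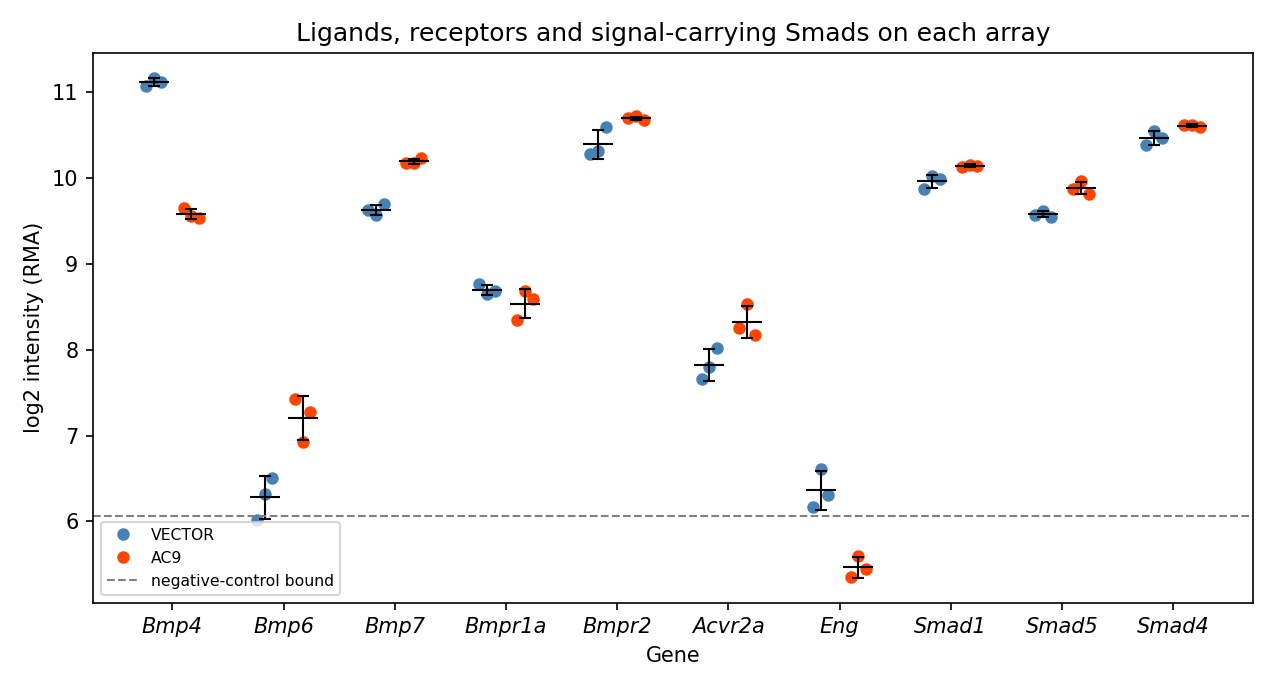
Log2 intensity (vertical axis) of Bmp4, Bmp6, Bmp7, receptors, the co-receptor Eng and 3 Smads (horizontal axis) on the 3 VECTOR and 3 AC9 arrays. Points are arrays, bars the mean ± SD, and the dashed line the negative-control bound of 6.06. Bmp4 and Eng are lower in AC9, Bmp6 and Bmp7 higher, and the Smads slightly higher; heights are not comparable between genes.

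The 5 Smads outside the 10 that carry signals to the nucleus, Smad1 to Smad5, had higher means in AC9, whereas the dim Smad9, a carrier too, was lower there. The direction of the 5 was the same also with arrays centred on their median or on the negative controls, or quantile-normalized again. None of the 5 overlapped between groups, as was so for 17.3% of all genes in this direction. All 5 were above the bound, but only 53.6% to 55.3% of all genes were above it on an array. That share thus sets bright genes against all genes, dim ones included. By limma 2 of the 5 rose. Smad5, a BMP Smad, went from 9.58 to 9.89 (log2 difference 0.31, SE 0.09, adjusted p 0.0438) and Smad3, a TGF-beta Smad, from 10.37 to 10.71 (0.34, SE 0.10, adjusted p 0.0459).

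Both calls are near the threshold. Smad5 lost its call without any 1 of the 6 arrays (adjusted p 0.0741 to 0.141) and with arrays centred on negative controls (0.0615) or quantile-normalized again (0.0587). Smad3 lost its own with quantile normalization repeated (0.0642) and without each array but VECTOR replicate 3 (0.0896 to 0.131). The other three did not pass: Smad1 had a difference of 0.18 (adjusted p 0.210), Smad2 0.30 (0.0593) and Smad4 0.15 (0.324). Smad2 gained a call with a trended robust prior (0.0240), with arrays centred on their median (0.0411), with quantile normalization repeated (0.0407), with dim genes left out (0.0222) and without VECTOR replicate 3 (0.0408). Smad1, like Smad9 a carrier of BMP signals, read 9.87, 10.02 and 10.00 in VECTOR and 10.13, 10.16 and 10.15 in AC9.

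Among 22 intracellular regulators of Smads, 4 rose and 2 fell, with a list median of 0.09. Usp9x, a deubiquitinase that keeps Smad4 active, read 8.41, 8.53 and 8.70 in VECTOR and 9.32, 9.32 and 9.36 in AC9, a rise of 0.79 (SE 0.10, limma adjusted p 0.000879), or 1.72-fold. Hivep2, a zinc finger partner of BMP Smads, rose by 0.50 (adjusted p 0.0379), a call lost without VECTOR replicates 1 or 2 or AC9 replicates 1 or 3 (0.0984 to 0.123). Ctdspl, of the small C-terminal domain phosphatases that act on Smads, had a log2 difference of -0.58 (SE 0.10, limma adjusted p 0.00475). It kept its call whichever array was left out. The other that fell, Tob1, an antiproliferative protein that binds Smads, had -0.37, and those that rose besides were Hivep1 (0.47) and the ubiquitin ligase gene Wwp1 (0.46), all 3 named after their values were seen. Without VECTOR replicate 1, 2 or 3 or AC9 replicate 1 or 2, Ctdspl alone was called lower.

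Of 23 other genes that respond to BMPs in various tissues, 2 rose and 1 fell, with a list median of 0.09. Cdx2, a homeobox factor of intestinal epithelium, fell, with a log2 difference close to that of Bmp4. It read 11.61, 11.78 and 11.54 in VECTOR and 10.01, 10.25 and 10.14 in AC9. The log2 difference was -1.51 (SE 0.11, limma adjusted p 3.71e-05), or 2.85-fold, and stayed between -1.57 and -1.44 in all alternatives run.

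In the other direction, Sox9, a transcription factor of distal lung progenitors, read 9.55, 9.68 and 9.67 in VECTOR and 10.50, 10.44 and 10.62 in AC9, a rise of 0.88 (SE 0.10, limma adjusted p 0.000360), or 1.84-fold. Hand2, a basic helix-loop-helix factor, rose by 0.40 (SE 0.10, limma adjusted p 0.0213), a call lost without VECTOR replicate 1, VECTOR replicate 2, AC9 replicate 1 or AC9 replicate 2 (0.0652 to 0.0775). So the called genes of this list did not all move one way.

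The 14 genes responsive to TGF-beta and activin, the sister branch that Smad7 also restrains, had 5 higher and 1 lower, with a median of 0.15. So 35.7% were higher, where 8.26% of all genes were. All 14 were above the bound in at least 1 group, but only 53.6% to 55.3% of all genes were above it on an array. These shares therefore set bright genes against all genes, dim ones included. Ccn2, the matrix protein also called CTGF, read 10.54, 10.71 and 10.65 in VECTOR and 11.36, 11.35 and 11.48 in AC9, a rise of 0.77 (SE 0.09, limma adjusted p 0.000724), or 1.70-fold. Skil, a Smad corepressor that TGF-beta induces, rose by 0.51 (SE 0.09, limma adjusted p 0.00457), or 1.42-fold. The others that rose, named after their values were seen, were Bhlhe40 (0.43), Tgif1 (0.33) and Ltbp3 (0.33). Tgfbi, an extracellular matrix protein, had a log2 difference of -0.47 (adjusted p 0.0249), a call lost without VECTOR replicate 1, VECTOR replicate 2, AC9 replicate 2 or AC9 replicate 3. Without AC9 replicate 3 the number higher was 2, and without VECTOR replicate 1, VECTOR replicate 2, AC9 replicate 1 or AC9 replicate 2 it was 3. Ccn2 is also a target of YAP, so the list is not read by Smads alone.

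Last among the lists were the partners that Id proteins hold and cell cycle inhibitors that Id proteins restrain. Of 6 such genes, 1 rose and 0 fell by limma (2 and 0 at an unadjusted p under 0.05), with a median of -0.0009. Cdkn1a, the cell cycle inhibitor p21, read 9.77, 9.82 and 9.86 in VECTOR and 10.18, 10.25 and 10.14 in AC9, a rise of 0.37 (SE 0.09, limma adjusted p 0.0183), or 1.30-fold. That call was lost without VECTOR replicate 1, AC9 replicate 1 or AC9 replicate 2 (0.0575 to 0.0687). The 3 E protein genes, named here for their role, did not pass: Tcf3 had a log2 difference of -0.17 (adjusted p 0.292), Tcf4 0.26 (0.0934) and Tcf12 0.14 (0.363).

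Genes outside the 10 with the most similar course over the 6 arrays were sought among 10307 genes above the bound in both groups. Genes of the pathway lists were not left out of this search. Likeness was the root-mean-square distance, over the 6 arrays, between a gene's values minus its VECTOR mean and the average of the 10 genes so expressed. The nearest were Psca, a surface antigen, at 0.03, Shroom3, an actin-binding protein, at 0.07, Ceacam1, an adhesion protein, at 0.07, Selenom, a selenoprotein, at 0.08 and Cyp1b1, a cytochrome P450, at 0.08. Their log2 differences were -1.15, -1.11, -1.17, -1.19 and -1.25, and since they were picked for this course no test is given.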

How the data were processed

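Expression was measured in 6 samples, 3 VECTOR and 3 AC9. The deposited values are log2 intensities per probe set that the authors obtained by RMA, as the submitters' processing notes name it. RMA corrects background, quantile-normalizes arrays and summarises probes, so levels near the background are compressed. Its software and genome build are not stated in the sources at hand.

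Of 28846 probe sets, 22206 were not controls and 19572 of these had exactly 1 gene symbol in GEO's platform annotation; 0 had several and 2634 none. All 19572 matched the RefSeq gene table of GRCm38.p6. For genes with several probe sets (55) the one with the highest mean was used, leaving 19505 genes. Symbols in the lists were matched the same way (126 of 135 found).

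The groups were compared by limma 3.58.1 under R 4.3.3 (lmFit, eBayes, two-sided), with Benjamini-Hochberg adjustment over all genes and a threshold of 0.05. The fit was tested on simulated data. Where both groups' means lay under the bound from negative controls no size is given, and with 1 under it a lower limit. The genes described and all lists were chosen with earlier results of these data known. Named pathway genes are, per list, up to 3 past the threshold with the largest change, plus the 5 nearest in course. In a list with none past the threshold, the 2 of smallest p are named. Any other gene was named with its values known, for its role, to complete a list or because its call changed. Alternatives were a trended robust prior, repeated quantile normalization, centring on the median or on negative controls, dim genes left out, probe sets averaged, a block for the replicate number, array weights, leaving out each array, and an adjusted p of 0.01. The number of arrays limits the precision.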

Additional observations from a re-analysis of the deposited data

How the results depend on the processing

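With the stricter threshold of 0.01 the limma counts over all genes became 729 higher and 941 lower, and those over the pathway lists 6 higher and 3 lower. Leaving out 1 array gave 968 to 1491 higher and 1206 to 1534 lower over all genes, and 9 to 18 higher and 3 to 5 lower over the pathway lists. The other alternatives run moved these counts by less than 1.5 times. The share of calls that were higher was 47.1%, and 43.9% to 53.0% over the rescalings. Leaving out genes under the bound in both groups, an alternative chosen after seeing the data, gave 23 pathway genes higher and 8 lower. For each of the 10 genes the log2 difference moved by less than the SD within groups in every alternative run on it. Averaging probe sets and the replicate block could not move it, since each gene has 1 probe set and the groups are balanced. That of Id4 changed sign without VECTOR replicate 3 (0.03) or without AC9 replicate 2 (0.04). The genes were chosen on this same difference, so these values describe it and are no test of it. Of 17 named pathway genes past the threshold, 9 kept the call whichever array was left out. With the replicate number as a block, 15 pathway genes were higher and 6 lower, and 1410 and 1652 over all genes. Smad5 (adjusted p 0.0718), Smad3 (0.0623), Tgif1 (0.0652), Ltbp3 (0.0583) and Tob1 (0.0565) then missed the threshold, and Bmp1 (0.0489), Zfyve16 (0.0335) and Snai2 (0.0389) passed it. That left 3 genes higher in the TGF-beta list, 0 in that of the Smads and 1 lower among the regulators. Same-numbered arrays did not deviate together (correlations over genes 0.01, 0.08 and 0.01), so the numbers are not treated as pairs. Genes near the bound, such as Id4, and under it, such as Smad9, limit what can be said of them.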
